A study of Mus musculus with 4 samples.

Results

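Regulatory T cells are the CD4 T cells that carry the transcription factor Foxp3 and restrain other immune cells. They were chosen by their own UMI counts in 4 single-cell libraries (unique molecular identifiers, each standing for 1 captured transcript). A barcode counted as a regulatory T cell when it had at least 500 detected genes, at most 10% mitochondrial UMIs, at least 1 Foxp3 UMI and at least 1 UMI of Cd3e, Cd3d or Cd3g. It also had to have no Cd8a, Cd8b1 or Cd79a UMI and at most 2 Lyz2 UMIs. This gave 801 regulatory T cells among 19357 kept barcodes, of 21074 listed. The comparison population was 6480 barcodes within the same limits that had at least 1 Cd4 UMI and no Foxp3 UMI, called Foxp3-negative CD4 cells here.

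All mice were pre-diabetic females with both Ocab alleles floxed (Ocabfl/fl), and the labels name no strain. The control groups carried only the floxed alleles, whereas the CD4-Cre groups (Ocabfl/fl.CD4-Cre) also carried Cre recombinase under the Cd4 promoter, which is active in developing T cells and so can remove Ocab from regulatory and other T cells alike. Ocab is an older name of Pou2af1, a coactivator that works with the octamer-binding factors Oct1 and Oct2. The pancreas libraries held CD45+ leukocytes sorted from 12-week-old mice, 4 pooled per library, and the pancreatic lymph node libraries held CD3 T cells separated magnetically from 8-week-old mice, 5 pooled per library. Each of the 4 groups was 1 library, so the animals within it cannot be separated, and tissue, age and selection cannot be told apart. The regulatory T cells numbered 111 in the pancreas of control mice, 191 in that of CD4-Cre mice, 156 in the control lymph nodes and 343 in the CD4-Cre lymph nodes. Where 4 values are given together, they stand in that order.

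Foxp3 fixes the identity of these cells and keeps active a programme that includes the high-affinity interleukin-2 receptor chain Il2ra, the inhibitory receptor Ctla4 and the Ikaros-family factor Ikzf2. Regulatory T cells make almost no interleukin-2 and depend on that made by their neighbours. A resting form circulates through lymph nodes guided by Ccr7, and an activated form gains Icos, Tigit and tissue-homing receptors. In the autoimmune pancreas they are known for holding back islet-reactive T cells.

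The libraries listed 3059 to 6963 barcodes. The summed regulatory T cells of a library held 619421 to 1478473 UMIs, with medians of 3163 to 4015 UMIs per cell against 3461.5 to 4561.5 in Foxp3-negative CD4 cells. Ribosomal protein genes took 23.2% to 31.2% of the UMIs of regulatory T cells and 33.4% to 35.6% of those of Foxp3-negative CD4 cells. Pairs of libraries shared 21 to 70 listed barcode sequences, and none of them marked a regulatory T cell in both. A doublet score marked 3, 8, 7 and 38 of the regulatory T cells, which were kept. Levels are given as CPM, the UMIs of a gene per 1000000 UMIs of the summed cells. Intervals on counts and shares are at 95% and cover counting error only.

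Foxp3 itself stood at 515, 460.2, 547.8 and 537 CPM in the summed regulatory T cells, a level that the selection sets. A single Foxp3 UMI carried 317 of the cells, and 484 had more. Il2ra stood at 123 CPM in the cells with 1 Foxp3 UMI, at 249 in those with 2 or more, and at 9.59 in the Foxp3-negative CD4 cells. The single-UMI cells were therefore between the other groups for this marker and far above the Foxp3-negative ones. At the Lyz2 limit, the 9 cells with 1 or 2 Lyz2 UMIs had 187 CPM of Il2ra, and the 16 barcodes with 3 or more, just outside the rule, had 17.1. A Cd4 UMI was seen in 61.3%, 71.7%, 61.5% and 68.2% of the regulatory T cells. Cells without one (266) had 248 CPM of Il2ra, and cells with one (535) had 191. Marker pairs also occurred outside the rule: 0.728%, 1.09%, 1.35% and 1.14% of the Foxp3-negative CD4 cells had UMIs of both Il2ra and Ikzf2, against 30.6%, 21.5%, 26.3% and 23.3% of the regulatory T cells.

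The marker genes that the rule did not use were far more often seen in these cells than in the other CD4 cells. After thinning each cell to 1000 UMIs, Il2ra was seen in 16.2%, 13.8%, 19.4% and 19.0% of the regulatory T cells and in 0.731% to 1.02% of the Foxp3-negative CD4 cells. In pancreas barcodes with a Cd79a UMI, a B cell gene, and no Cd3e UMI, the share was 0.212% and 0.218%, which gives the background. Unthinned, it was 36.9%, 28.3%, 41.0% and 41.1% of the regulatory T cells. Ikzf2 was seen in 40.5%, 41.3%, 23.2% and 26.0% of the regulatory T cells, and Ctla4 in 45.9%, 36.0%, 16.1% and 12.9%. Both were thus more often seen in pancreas cells, whereas Il2ra was not. Without thinning, Foxp3 was seen in 1 of 947 pancreas control barcodes with Cd79a and no Cd3e UMI. In pancreas CD4-Cre it was seen in 0 of 1383, with an upper limit of 0.266%. In pancreas barcodes with more than 2 Lyz2 UMIs and no Cd3e UMI, Foxp3 was seen in 0 of 377 and 2 of 353 (0.567%).

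Which genes set regulatory T cells apart from the other CD4 cells was tested on UMIs summed per library and population, with the library as a block (edgeR quasi-likelihood test, 4 libraries, Benjamini-Hochberg adjustment over 9080 genes). Regulatory T cells had more of 874 genes, 9.63% of those tested, and less of 714, 7.86%. The identity genes rose together, as did genes of suppression and of activated regulatory T cells, and genes of the resting, recirculating state fell. The median log2 difference over all genes tested was -0.01. Labels name no separate preparations within a library, so p-values here measure the spread between libraries that also differ in tissue and genotype.

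Of 20 identity genes, 19 were frequent enough to be tested and all 19 were higher, with a median log2 difference of 2.77. Il2ra stood at 184, 163, 213 and 237 CPM in regulatory T cells and at 6.76, 10.5, 12.1 and 8.52 in Foxp3-negative CD4 cells. The populations were well apart in every library, and the log2 difference was 4.21 ± 0.14 (SE, adjusted p = 3.4e-10). Ikzf2 stood at 517, 589.7, 341 and 338 against 43.8, 47.0, 22.4 and 25.6, a difference of 3.52 ± 0.10 (adjusted p = 5.7e-11). Ikzf4, a relative of Ikzf2 that acts with Foxp3, rose by 3.32. Ctla4 stood at 641, 564, 220.1 and 156 against 84.9, 74.0, 18.5 and 11.6, a difference of 3.05. Its level was higher in the pancreas in both populations.

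The surface and costimulatory genes followed. Lrrc32, which holds latent TGF-beta on the cell surface, stood at 22.6, 23.9, 24.2 and 55.5 CPM against 3.22, 2.87, 0.518 and 1.55 (log2 difference 3.94 ± 0.40, adjusted p = 9.7e-06). Itgae, the CD103 chain that binds E-cadherin on epithelium, had the largest difference among the genes named by rule, 4.34 ± 0.33 (adjusted p = 6.6e-07), with 128, 132, 38.7 and 24.3 against 2.07 to 4.18. Tnfrsf4 (OX40), Tnfrsf9 (4-1BB) and Tnfrsf18 (GITR), costimulatory receptors of the TNF family, rose by 2.91, 2.94 and 1.52. Izumo1r, the folate receptor 4 gene, was among the most abundant of the list at 620, 679, 1138 and 1205 CPM, and rose by 2.21. Entpd1 and Nt5e, whose enzymes turn extracellular ATP into adenosine, rose by 2.19 and 2.0.

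**Figure D1:**
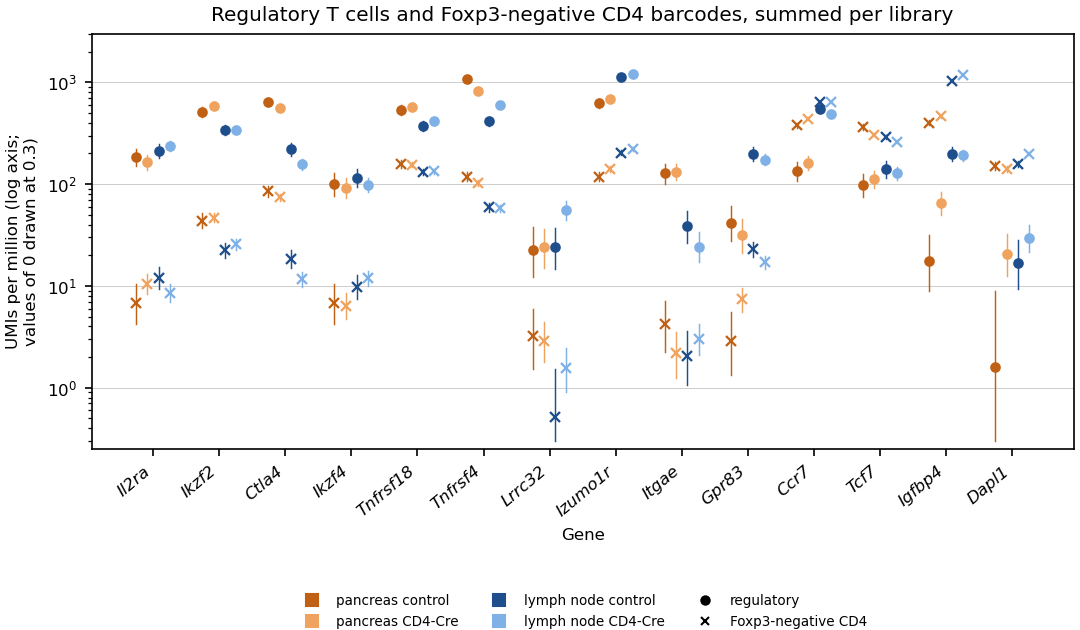
CPM (log axis) of 14 genes in each library, as circles for regulatory T cells and crosses for Foxp3-negative CD4 cells, with exact Poisson 95% intervals as lines cut off at 0.3. The identity genes from Il2ra to Gpr83 have every circle above every cross of the same library, and Igfbp4 and Dapl1 have every circle below.

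Other genes were named for the size of their difference. Rln3, the gene of a relaxin-family peptide hormone, stood at 64.6, 104, 71.3 and 75.8 CPM in regulatory T cells and at 2.07 to 5.79 in Foxp3-negative CD4 cells, a log2 difference of 4.10 ± 0.21 (adjusted p = 2.3e-08). Epcam, an adhesion molecule of epithelium, stood at 64.6, 50.05, 21.8 and 32.5 against 3.53 to 4.09 (3.19 ± 0.24, adjusted p = 6.6e-07). Lamc1, a laminin chain, rose by 3.85 and Serpina3g, a serine protease inhibitor, by 3.31. Flicr, a long noncoding RNA of the Foxp3 locus, rose by 4.10, with 16.9 to 37.1 against 0.861 to 1.73. Flicr (chrX:7573600-7581027, plus strand) overlaps Foxp3 (chrX:7573644-7595245, plus strand) in GENCODE M21 on GRCm38, so its UMIs and those of the gene that defined the cells could be exchanged in counting. Itgae, Epcam and Lamc1 had higher levels in both pancreas libraries than in both lymph node libraries, whereas Rln3 did not separate the tissues.

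Promoter sequences were available for some of the genes that separate the populations, and the 150 bases before the start are given for the defining gene and for the genes of 2 marker receptors. They are RefSeq promoters on GRCm38.p6, plus strand, at chrX:7580333-7580482 for the downstream of the listed Foxp3 starts, chr2:11642642-11642791 for Il2ra and chr1:60908875-60909024 for Ctla4. Capitals mark matches to any of 3 motifs: the octamer ATGCAAAT, the STAT motif TTCNNNGAA and the forkhead motif GTAAACA, each sought on both strands.
Foxp3: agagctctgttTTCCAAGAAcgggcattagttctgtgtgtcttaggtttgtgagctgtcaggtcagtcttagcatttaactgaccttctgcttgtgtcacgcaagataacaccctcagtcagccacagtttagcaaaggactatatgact
Il2ra: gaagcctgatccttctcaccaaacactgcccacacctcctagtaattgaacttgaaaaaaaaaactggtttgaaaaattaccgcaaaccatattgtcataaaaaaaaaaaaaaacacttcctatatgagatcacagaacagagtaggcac
Ctla4: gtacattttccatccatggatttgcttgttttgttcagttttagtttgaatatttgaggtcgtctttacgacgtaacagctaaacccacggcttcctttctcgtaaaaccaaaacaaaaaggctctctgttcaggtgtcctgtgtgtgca
The Foxp3 stretch holds 1 STAT match, and the stretch overlaps an exon of Flicr. The 150 bases before the upstream listed Foxp3 start (chrX:7579526-7579675), not shown, hold none of the 3 motifs. No motif of the 3 was found in the other stretches, nor in the full 250 bases before the Il2ra and Ctla4 starts. Over 250-base windows, the octamer was in 1.60% of all 32851 promoters of the table and in 1.09% of the 9092 promoters of tested genes. It was in 1.64% of 856 promoters of the genes higher in regulatory T cells and in 0.833% of 720 promoters of the genes lower in them. The STAT motif was in 7.02%, 5.81%, 6.78% and 5% of the same sets, and the forkhead motif in 3.17%, 2.09%, 2.10% and 2.5%. Promoters were found for 668 of the 874 genes that were higher and for 528 of the 714 that were lower. A match describes the letters only.

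Genes of suppression were mostly higher. Of 15 on the list, 10 were tested, 8 of them were higher and 1 lower, with a median log2 difference of 1.44. Ebi3, a subunit of interleukin-35, rose by 3.26 and Fgl2, a secreted suppressive protein, by 3.19. Fgl2 stood at 140 and 104 CPM in the pancreas regulatory T cells and at 12.1 and 6.76 in those of the lymph node. Tigit, an inhibitory receptor, rose by 2.35, Lag3 by 1.70 and Pdcd1 (PD-1) by 0.90. The member that fell was Prf1, which encodes the pore-forming protein of killer cells, with 12.9, 18.5, 10.9 and 4.06 CPM against 24.3 to 38.6. Il10, Gzmb and 3 more were too rare for the test.

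Of 18 genes of activated regulatory T cells, 17 were tested, 16 were higher and 1 (Id2) was lower, with a median of 1.52. Ccr8, a chemokine receptor of tissue regulatory T cells, rose by 2.65, Maf by 1.87 and Icos, a costimulatory receptor, by 1.49. S100a6, a calcium-binding protein, rose by 2.28 and Klrg1, a receptor of late activated cells, by 2.86. The Id2 difference was small, -0.47 ± 0.12 (adjusted p = 0.011), and had that direction in 3 of 4 libraries. Of 12 tissue repair genes, 5 of the 7 tested were higher. Penk, which encodes enkephalin precursors, rose by 2.5, but few cells held its UMIs: in lymph node CD4-Cre, 64 of 107 lay in 1 cell.

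Genes of the resting state fell. Of 16 on the list, 15 were tested, 12 were lower and 1 higher, with a median of -0.99. Igfbp4, a binding protein of insulin-like growth factors abundant in naive CD4 cells, stood at 17.8, 65.3, 199.5 and 191 CPM in regulatory T cells and at 399, 463, 1041 and 1185 in Foxp3-negative CD4 cells, and fell by 2.98 on the log2 scale (SE 0.19, adjusted p = 1.2e-07). Il7r, the interleukin-7 receptor chain, fell by 1.94, Lef1 by 1.79 and Tcf7 by 1.5, the last pair being transcription factors of naive and memory T cells. Dapl1 fell by 3.28 and had 1 UMI in the pancreas control regulatory T cells. The member that rose was Id3, an inhibitor of E proteins known to matter in regulatory T cells, by 0.75 ± 0.15 (adjusted p = 0.0027). Outside the lists, Slpi, a secreted protease inhibitor, fell most, by 3.92 ± 0.40 (adjusted p = 1.1e-05), with 0, 2, 4 and 1 UMIs in the regulatory T cells against 77 to 309 in the other CD4 cells. Pdlim4, Plaur (the urokinase receptor) and Vipr1 (a receptor of vasoactive intestinal peptide) fell by 3.73, 3.0 and 2.66.

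**Figure D2:**
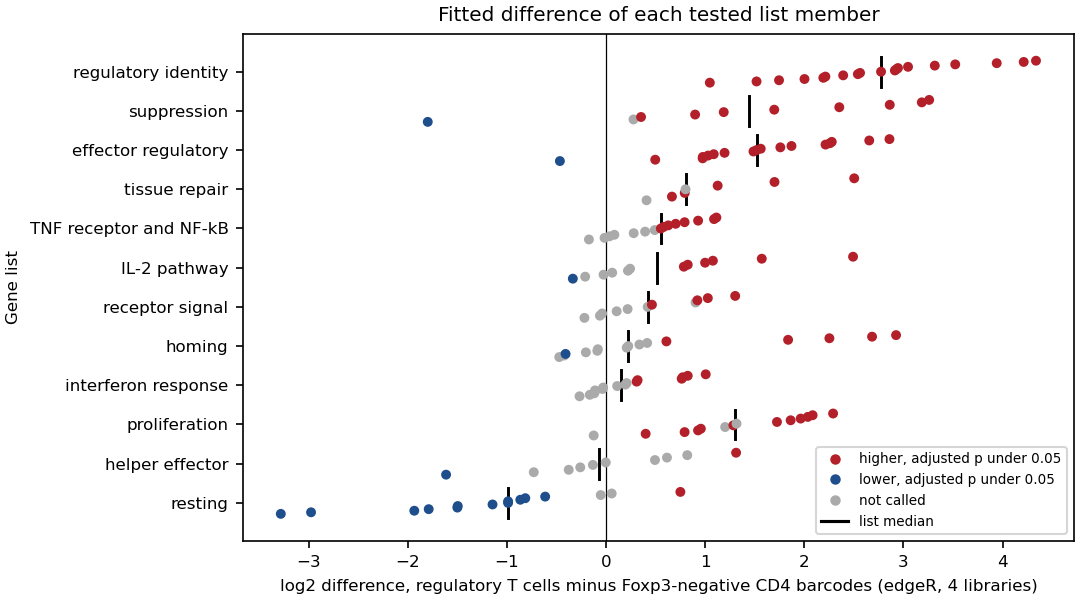
Fitted log2 difference between regulatory T cells and Foxp3-negative CD4 cells for each tested gene of 12 lists, 1 row per list, with the list median as a vertical bar. All 19 points of the identity list are called higher, and 12 of the 15 points of the resting list are called lower.

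Il2, the gene of the cytokine interleukin-2, had 0, 1, 0 and 0 UMIs in regulatory T cells against 8, 13, 34 and 30 in the far more numerous other CD4 cells, and was too rare for the test. In neither pancreas library was a difference detectable at this depth. There, 3 counts correspond to 4.84 CPM in control and 3.26 CPM in CD4-Cre, and the other CD4 cells had 2.57 and 1.77 CPM. Il2rb, the shared beta chain, stood at 638, 529, 615 and 554 CPM against 137, 149, 65.7 and 50.9 (log2 difference 2.49 ± 0.22, adjusted p = 2.8e-06). Cish, a feedback inhibitor of cytokine signalling, rose by 1.57. Of the 13 pathway genes, 12 were tested, 6 were higher and 1, Jak1, was lower by 0.34. Of 15 genes of TNF receptors and NF-kB, 8 were higher and none lower, among them Traf1 (1.09) and Nfkb2 (1.11).

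Of 16 helper genes, 10 were tested and 8 of these were not called. Cd40lg, the ligand by which helper T cells activate B cells, was lower by 1.62 and Cxcr5, the follicle-homing receptor, was higher by 1.31. Sostdc1 had no UMI in the regulatory T cells of any library, while the other CD4 cells of pancreas CD4-Cre and lymph node CD4-Cre had 133 and 69. Against a floor of 3 counts per library, it was at least 5.56-fold lower in the first and at least 2.93-fold lower in the second. Among the Oct factors that Pou2af1 works with, Pou2f2 (Oct2) was higher, at 129, 163, 164 and 178 CPM against 68.9, 84.8, 44.0 and 46.0 (1.28 ± 0.17, adjusted p = 0.00011). Pou2f1 (Oct1) was not called (-0.03 ± 0.24, adjusted p = 0.96).

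Cell-cycle genes were higher, with 11 of 14 called and a median of 1.30. At least 3 of the genes Mki67, Top2a, Birc5, Rrm2, Pclaf and Cdk1 were seen in 5 of 111, 3 of 191, 6 of 156 and 4 of 343 regulatory T cells, which is 4.5%, 1.57%, 3.85% and 1.17%. In Foxp3-negative CD4 cells the shares were 0.607%, 0.883%, 0.592% and 0.196%. The cell-cycle values thus rest on few cells. In lymph node control, 1 cell of 50223 UMIs held 38 of the 59 Mki67 UMIs and 39.0% of the list's UMIs.

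RNA of other cell types moved with the regulatory T cells of the pancreas. Of 15 genes of B, myeloid and NK cells, 3 or more UMIs in sum were found in 10 of 111 and 12 of 191 pancreas regulatory T cells (9.01% and 6.28%) and in 1 of 156 and 1 of 343 of those in the lymph node. In Foxp3-negative CD4 cells of the pancreas the shares were 1.46% and 1.77%. These shares were counted without thinning. The marked regulatory T cells of the pancreas had medians of 15175.5 and 7514 UMIs, against 3068 and 3501 in the unmarked ones. The summed B cell marker list (7 genes) stood at 6976 and 1942 CPM in pancreas regulatory T cells and at 463 and 361 in those of the lymph node, where Ms4a1 was at 0. The myeloid list (8 genes) stood at 3239 and 1069 against 232 and 209, with 3 and 2 genes at 0 in the pancreas and 7 and 5 in the lymph node, Csf1r, C1qa and C1qb among the latter. The NK list (6 genes) stood at 268 and 276 against 10.9 and 4.06, with all but Prf1 at 0 in the lymph node. Within the main comparison, all 5 tested B cell genes, both tested myeloid genes and 2 of 4 tested NK genes were higher in regulatory T cells. Leaving those barcodes out of both populations, a choice made after seeing the data, gave 843 genes higher and 717 lower, of which 1429 were also called before. All 19 identity genes were still higher, and so were Cd74, Igkc, Ighm and Cd79b of the B cell list but not H2-Aa. Whether these barcodes are doublets, cells in contact or free RNA was not tested.

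Tissue came next. Pancreas and lymph node levels were not tested against each other here, and ratios of CPM are given for each genotype with counting intervals. A gene was counted when it was at least 2-fold apart in the same direction in both genotypes and its higher library held 50 UMIs or more. Pancreas regulatory T cells had more of 100 such genes, 4.05% of 2472, and less of 34, 1.38%. Of 16 homing genes, 9 in control and 11 in CD4-Cre mice reached 50 UMIs. Ccr2 and Cxcr6 did so only through the pancreas, so their ratios above 0 are partly fixed by the minimum. Ratios were above 0 for 8 of the 9 and 9 of the 11, with median log2 ratios of 0.90 and 0.53. The same genes had medians of 0.39 and 0.53 in Foxp3-negative CD4 cells, and all genes had medians of -0.07 and 0.00. More cells expressing a gene and more RNA per cell cannot be told apart in these sums.

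The rule-named genes with the largest excess in the pancreas were led by antigen-presentation and granule genes. H2-Ab1 stood at 1170.4, 156, 1.21 and 2.71 CPM, and H2-Aa, H2-Eb1, Cd74, Fcer1g, Tyrobp, Gzma and Gzmb had the same order of tissues. These values came from few cells: 319 of the 725 H2-Ab1 UMIs of pancreas control lay in 1 cell, and only 6 cells had any. Tyrobp was at 0 in both lymph node libraries and was seen in 10 cells of each pancreas library. Among the other rule-named genes, Fos was seen in 58 and 77 pancreas cells and Ccl5 in 31 and 45. The genes of this comparison were therefore also named after leaving out barcodes with other-lineage RNA and after leaving out, for each gene and library, the cell with most of its UMIs, both chosen after seeing the data. The counts were 85 and 28 without other-lineage barcodes, 91 and 32 without the top cell, and 70 and 24 genes were past the limit in each of the 3 settings.

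In cells without other-lineage RNA, Fos led the 12 genes with the highest pancreas ratios. This transcription factor gene of the dissociation stress list stood at 344, 154, 10.3 and 4.07 CPM, with log2 ratios of 5.06 (4.05 to 6.3) and 5.24 (4.08 to 6.71). Ccr2, a receptor for inflammatory chemokines, stood at 135, 141, 9.01 and 3.39 CPM. Cxcr6, a receptor of tissue-resident T cells, stood at 157, 168, 9.01 and 10.8, with log2 ratios of 4.12 (3.0 to 5.49) in control mice and 3.96 (3.2 to 4.8) in CD4-Cre mice. Tigit stood at 594, 522, 61.8 and 46.1, with ratios of 3.26 (2.82 to 3.74) and 3.50 (3.13 to 3.89). These genes were chosen for large ratios in both genotypes, so the distance between their pancreas and lymph node values follows from the choice. S100a6 and S100a4, calcium-binding proteins of activated and migrating cells, were higher by 3.54 and 4.85 and by 4.00 and 3.48 in the 2 genotypes. Ccl5, Lgals3, Tnfaip3, Ppp1r15a, Arl5a and Serpina3g completed the 12. Foxp3-negative CD4 cells moved the same way in all 12, by 3.62 and 2.66 for Tigit, for instance. For Arl5a the ratio was 3.56 and 3.88 in regulatory T cells against 1.18 and 1.48 in the others.

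In the same cells without other-lineage RNA, the 12 genes highest in the lymph node held the homing receptor Ccr7, with 159, 168, 583 and 489 CPM. Its log2 ratio was -1.88 (-2.25 to -1.51) in control mice and -1.54 (-1.81 to -1.27) in CD4-Cre mice. Gpr83, an orphan receptor typical of regulatory T cells, stood at 44.1, 35.6, 205 and 174, and Igfbp4 at 24.3, 45.5, 212 and 192. Id3, Dtx1 (a Notch pathway ligase), Pik3ip1 (an inhibitor of PI3 kinase), Ddit4, Eno3, Treml2, Ncoa7, Art2b and Mir142hg were the others. Mir142hg had 0 UMIs in these cells of pancreas control, where it was lower than in lymph node control by at least 3.50 on the log2 scale. Over all regulatory T cells of pancreas control it had 3 UMIs, a log2 ratio of -3.86. Ncoa7, a nuclear receptor coactivator, was lower by 2.19 and 1.52 in the regulatory T cells of the pancreas, with ratios of -0.14 and -0.01 in the other CD4 cells.

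**Figure D3:**
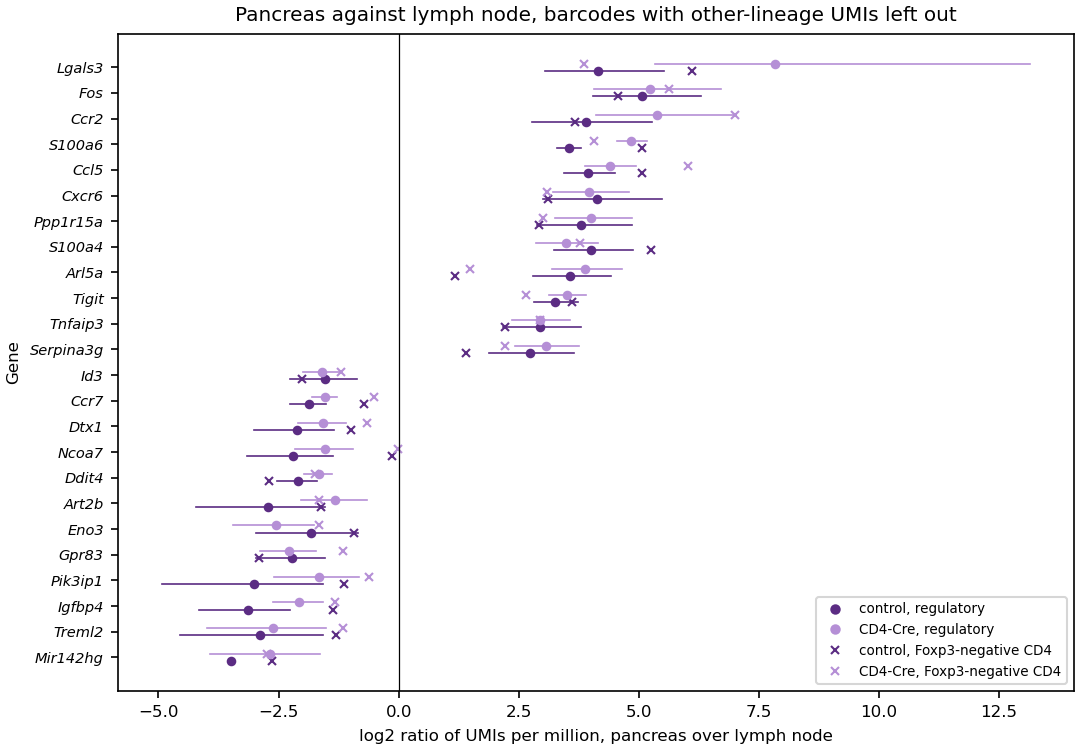
Log2 ratio of CPM, pancreas over lymph node, for the 12 genes highest in each tissue, in barcodes without other-lineage RNA. Circles with 95% counting intervals are regulatory T cells, crosses are Foxp3-negative CD4 cells, and dark and light stand for control and CD4-Cre. A value of 0 UMIs was set to 3 counts, which leaves Mir142hg in control mice without an interval. The ratios of Tigit are above 3 in both genotypes and those of Ccr7 below -1.

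By list, 13 of 18 genes of activated regulatory T cells reached 50 UMIs, a minimum that a gene can pass through the tissue where it is high. All 13 had ratios above 0 in both genotypes, with median log2 ratios of 1.32 and 1.61 and 9 past 2-fold in each. The same genes had medians of 1.43 and 1.43 in Foxp3-negative CD4 cells, and all genes had medians of -0.07 and 0.00. Over all 18 genes, without the minimum, the summed level was 4800 and 4205 CPM in the pancreas against 1190 and 856 CPM in the lymph node. Cxcr3, a receptor for interferon-induced chemokines, stood at 284, 330, 72.6 and 24.3 CPM, and Icos at 274, 294, 110 and 86.6. For both genes the pancreas value was the higher in each genotype, as for all 13. Of 15 suppression genes, 7 reached 50 UMIs, Fgl2 and Gzmb only through the pancreas, so their ratios above 0 are partly fixed by the minimum. The 7 had medians of 1.68 and 2.32, and the same genes 1.75 and 1.61 in Foxp3-negative CD4 cells. Over all 15 the summed level was 3177 and 2695 CPM against 1184 and 705 CPM. Gzmb had 46 of its 68 pancreas control UMIs in 1 cell. Il10, the gene of a suppressive cytokine, had 20 and 44 UMIs in the pancreas and 0 and 1 in the lymph node. Areg, a growth factor of tissue repair, had 61 and 22 UMIs against 1 and 6.

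The identity list had medians of -0.09 in control and 0.19 in CD4-Cre mice, with 7 of 15 and 10 of 17 genes above 0. Without other-lineage barcodes the medians were 0.35 and 0.31, with 8 of 14 and 11 of 17 above 0. Individual members went opposite ways: Ctla4 was higher in the pancreas by 1.54 and 1.85 and Itgae by 1.72 and 2.43. Gpr83 was lower by 2.25 and 2.47, and Izumo1r by 0.88 and 0.83. Il2ra was slightly lower (-0.21 and -0.54). Ikzf4 was near even (-0.21 and -0.09).

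Of 16 resting genes, 14 reached the UMI minimum in each genotype. Ratios were below 0 for 12 of 14 in control and 9 of 14 in CD4-Cre mice, with medians of -0.96 and -0.67. The same genes had medians of -0.14 and 0.17 in Foxp3-negative CD4 cells. In control mice, Igfbp4 and Id3 reached the minimum only through the lymph node, so their ratios below 0 are partly fixed by it. Over all 16 genes, without the minimum, the summed level was 2010 and 2737 CPM in the pancreas against 3559 and 3429 CPM in the lymph node. Bcl2, which protects lymphocytes from death, stood at 103, 100.1, 258 and 299 CPM. By contrast, Klf2 stood at 602, 774, 590.1 and 570.2, and Il7r was higher in the pancreas by 0.43 and 1.60.

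Of 12 genes of the dissociation stress list, 7 in control and 8 in CD4-Cre mice reached the UMI minimum. Fos did so only through the pancreas, with 244 and 191 UMIs against 8 and 6, so its ratios above 0 are partly fixed by the minimum. The genes that reached it had median log2 ratios of 2.21 and 2.08 in regulatory T cells. The same genes had medians of 1.63 and 1.77 in Foxp3-negative CD4 cells. Over all 12 genes, without the minimum, the summed level was 5092 and 4480 CPM in pancreas regulatory T cells against 1603 and 1418. Fos, named above, is on this list, and the part of tissue handling in these ratios was not tested. Exocrine markers stood at 45.2 and 96.8 CPM in the pancreas and at 0 and 7.44 in the lymph node.

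A test was possible for whether the difference between regulatory and other CD4 cells itself changed with tissue, with the 2 genotypes as the 2 libraries of a tissue. The edgeR test called 274 genes (3.02%), 84 with a difference more positive in the pancreas (0.925%) and 190 in the lymph node (2.09%). Called by DESeq2 were 113, all among the 274. The number fell to 160 without pancreas control, to 39 without lymph node control and to 25 without lymph node CD4-Cre. Without other-lineage barcodes 352 were called, of which 246 were shared. In simulated data the edgeR tissue test found 26% of genes changed by 1 on the log2 scale and 71% of those changed by 2. Of its calls there, 9.35% were genes that had not been changed.

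Il2rb showed the pattern plainly. Its level in regulatory T cells was alike in all 4 libraries, 529 to 638 CPM, while other CD4 cells had 137 and 149 in the pancreas and 65.7 and 50.9 in the lymph node. The difference was thus smaller in the pancreas, by 1.4 ± 0.14 on the log2 scale (edgeR, adjusted p = 3e-05). Socs2, a feedback regulator of cytokine signalling, had the same form, -3.22 ± 0.33, with 79.1, 70.7, 52.0 and 58.8 in regulatory T cells against 33.1, 19.5, 2.24 and 1.98. Ccr7 differed by -1.22 ± 0.13 because it was lower in pancreas regulatory T cells. Tbc1d4, a regulator of glucose transporter traffic, was higher in regulatory T cells of the lymph node, 169 and 180 against 42.6 and 36.7 in the other CD4 cells. In the pancreas this excess was absent, with 64.6 and 86.0 against 100 and 89.7. The intervals overlapped in pancreas CD4-Cre, 68.0 to 107 against 82.9 to 96.8. The change between tissues was -2.51 ± 0.20 (edgeR, adjusted p = 1.5e-06). Cd74 (2.70) and H2-Aa (3.93) were called as well, but without other-lineage barcodes their values were -0.13 and -1.01.

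Of the tested resting genes, 7 of 15 had a more negative difference in the pancreas (among them Ccr7, Lef1, Tcf7, Bach2, Bcl2 and Foxp1) and none a more positive one. Of the identity genes, Itgae (1.98) and Tnfrsf9 (0.96) had a larger difference in the pancreas, and Ctla4 (-0.81), Lrrc32, Nrp1, Nt5e, Socs2 and Cd83 a smaller one. For Ctla4 the smaller difference went with a higher level in both populations of the pancreas. Nrp1, a receptor used to mark regulatory T cells of thymic origin, stood at 88.8, 96.8, 94.3 and 77.8 in regulatory T cells. In the other CD4 cells it stood at 31.9, 28.3, 4.14 and 8.26. None of the 10 tested suppression genes and 1 of the 17 tested activation genes (Klrg1) was called. Without other-lineage barcodes, 2 of the 10 suppression genes were called, Pdcd1 and Lgals1, 1 in each direction.

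Genotype was examined last, within each tissue, with 1 library per group and so with no replicate check and no test. The targeted gene could not be followed in these cells: Pou2af1 (chr9:51213708-51240080, plus strand, GENCODE M21) had 2, 1, 1 and 0 UMIs in regulatory T cells. In Foxp3-negative CD4 cells it had 22, 4, 38 and 1, or 7.08, 0.546, 6.56 and 0.0861 CPM. The libraries labelled CD4-Cre thus had less of it in the population where it could be counted. Values in both genotypes of regulatory T cells are at or under the floor of 3 counts, so no fold is given.

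The share of regulatory T cells among regulatory plus Foxp3-negative CD4 cells was 11% (8.17 to 14.4), 8.03% (6.46 to 9.85), 15.1% (12.2 to 18.3) and 11.4% (9.73 to 13.2) after thinning to 1000 UMIs (exact Clopper-Pearson intervals). No pancreas barcode with Cd79a and no Cd3e UMI had a Foxp3 UMI at this depth, of 942 and 1376, with upper limits of 0.391% and 0.268%. Unthinned, the shares were 11.9%, 9.03%, 11.7% and 11.9%. In the pancreas, CD4-Cre was 2.97 percentage points lower than control (-6.66 to 0.234 for the difference) after thinning and 2.85 points lower without (-5.35 to -0.529). In the lymph node it was lower by 3.68 points (-7.27 to -0.400) after thinning, but 0.201 points higher (-1.95 to 2.23) without, so the direction there depends on the depth used. Pancreas was below lymph node by 4.08 points in control mice (-8.24 to 0.257 for the difference) and by 3.37 in CD4-Cre mice (-5.73 to -0.953). Unthinned, the difference in control mice was 0.212 points in the other direction. Another denominator was all barcodes within the rule's CD3, CD8, Cd79a and Lyz2 limits, judged on the thinned counts. Regulatory T cells made up 2.44%, 2.40%, 3.98% and 3.71% of these after thinning. Unthinned, they were 111 of 1848, 191 of 3362, 156 of 1903 and 343 of 3629 barcodes within the limits, so these shares depend strongly on depth.

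**Figure D4:**
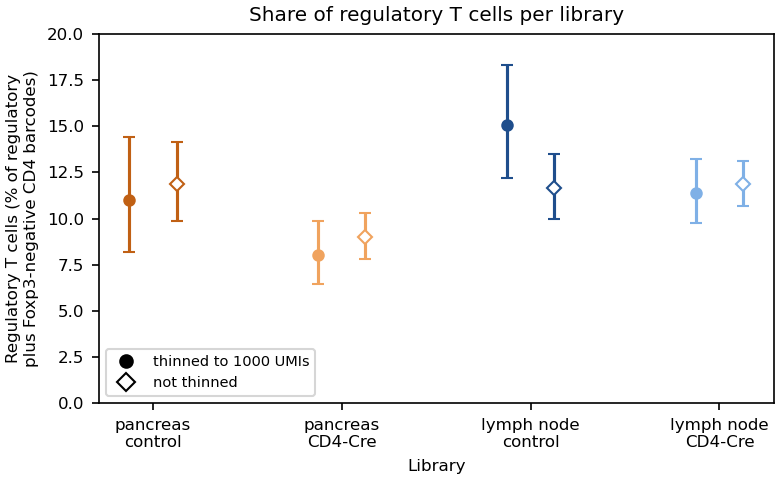
Regulatory T cells as a percentage of regulatory plus Foxp3-negative CD4 barcodes in each library, thinned to 1000 UMIs (filled circles) and unthinned (open diamonds), with exact 95% binomial intervals. Pancreas CD4-Cre has the lowest share at both depths, 8.03% and 9.03%.

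Few genes of regulatory T cells differed in level by 2-fold between the genotypes. In the pancreas 54 did so, 2.04% of 2652, of which 21 were higher (0.792%) and 33 lower (1.24%) in CD4-Cre. In the lymph node 41 did so, 1.22% of 3355, 18 higher (0.537%) and 23 lower (0.686%). Other-lineage barcodes and single cells carried many of these: 27 and 26 genes were left without other-lineage barcodes, 37 and 28 without the top cell of each gene, and 10 and 16 genes were past the limit in each of the 3 settings. The share of higher genes went in the pancreas from 38.9% to 63.0% without other-lineage barcodes and to 64.9% without the top cell. In the lymph node it went from 43.9% to 80.8% and to 75.0%.

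Among the rule-named pancreas genes, Cxcl9, Ccl22, Plbd1, H2-Ab1, H2-Eb1 and Cst3, genes of dendritic cells and macrophages, were lower in CD4-Cre. All 55 Ccl22 UMIs lay in 1 cell, and 866 of the Cst3 UMIs of pancreas control did. S100a8, S100a9 and Il1b, genes of neutrophils and monocytes, were higher in CD4-Cre, with 220 of 221 S100a9 UMIs and all 140 S100a8 UMIs in 1 cell. These values therefore describe a handful of barcodes. Igfbp4, Nt5e and Itm2a were also higher in CD4-Cre. Nt5e stood at 22.6 and 62.0 CPM, a log2 ratio of 1.46 (0.59 to 2.41), spread over 12 and 44 cells with at most 4 UMIs in any. In the lymph node Nt5e stood at 81.0 and 54.8 CPM, a ratio of -0.56 (-1.05 to -0.08).

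In pancreas cells without other-lineage RNA, Irf8 and Odc1 were lower and Ppid, Mpdu1, Nrbp1, Ei24, Herc4, Nt5e, Cd74 and Ssr2 were higher in CD4-Cre. Irf8, an interferon regulatory factor, stood at 148 and 50.4 CPM, a ratio of -1.55 (-2.15 to -0.97). In the lymph node it stood at 18.0 and 54.9, a ratio of 1.61 (0.78 to 2.54). Its difference between the genotypes thus had opposite directions in the tissues, and with 1 library per tissue and genotype this was not tested. Odc1, the first enzyme of polyamine synthesis, stood at 196 and 87.2. The Cd74 ratio was 1.07 here but -3.54 over all barcodes when the top cell of each library was left out.

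In the lymph node, Cxcr3, S100a6, Cenpa and Ccni were lower in CD4-Cre. Cxcr3 stood at 68.2 and 24.4 CPM without other-lineage barcodes, a ratio of -1.48 (-2.14 to -0.85), against -0.64 in the other CD4 cells. S100a6 stood at 196 and 63.1. Lrrc32 was higher, at 25.7 and 54.9, a ratio of 1.09 (0.37 to 1.88). Bbc3, which promotes cell death, Tgif1, a repressor of TGF-beta responses, Gpr183, a receptor for oxysterols, Ubfd1 and Ing4 were also higher. Ccl1 had 52 of its 54 CD4-Cre UMIs in 1 cell.

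Cell-cycle genes were lower in CD4-Cre in both tissues, but in few cells. Pclaf stood at 108, 34.8, 127 and 41.3 CPM, Top2a at 80.7, 32.6, 91.9 and 25.7, and Hist1h2ap at 131, 60.9, 235 and 103. These were the 3 genes past 2-fold lower in both tissues, 0.126% of 2389, and 1 gene was past 2-fold higher in both (0.0419%). Over the list, 5 of 6 genes were lower in the pancreas (median -0.88) and all 10 in the lymph node (median -1.57). Without other-lineage barcodes, which include the cell of 50223 UMIs, the medians were 0.20 over 3 genes and -0.07 over 7. Ratios were then above 0 for 2 of the 3 and below 0 for 4 of the 7. These medians cover other sets of genes, so the lean of the list depended on the barcodes and genes kept.

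The identity list had median CD4-Cre over control ratios of 0.10 in the pancreas and 0.11 in the lymph node, beside 0.10 and 0.03 over all genes. Il2ra had ratios of -0.17 (-0.53 to 0.19) and 0.15 (-0.11 to 0.42), and Ikzf2 of 0.19 (-0.01 to 0.40) and -0.01 (-0.23 to 0.20). Ctla4 had -0.19 (-0.38 to 0.01) and -0.49 (-0.78 to -0.21). The resting genes leaned up in the pancreas, with 11 of 13 above 0 and a median of 0.36. In the lymph node 10 of 14 were below 0 (median -0.13). In the pancreas, Igfbp4 and Id3 reached the UMI minimum only through CD4-Cre, so their ratios above 0 are partly fixed by it. Without other-lineage barcodes the pancreas median was 0.11.

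**Figure D5:**
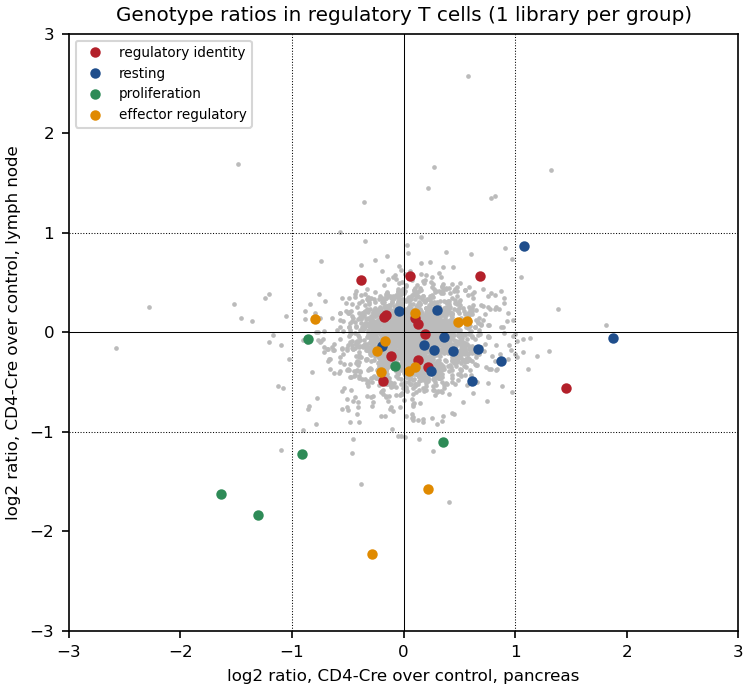
Log2 ratio of CPM, CD4-Cre over control, in regulatory T cells of the pancreas (horizontal) and lymph node (vertical), for 2741 genes with at least 50 UMIs in 1 library of each tissue. Dotted lines mark 2-fold, and colours mark 4 lists. Most genes lie within 2-fold in both tissues, 3 are past it downwards in both and 1 upwards in both.

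Whether the difference between regulatory and other CD4 cells changed with genotype was tested with the 2 tissues as the 2 libraries of a genotype. The edgeR test called 0 of 9080 genes (0%), with 211 at an unadjusted p under 0.05, and DESeq2 also called 0. The smallest adjusted p was 0.598, for Trbv3. In simulated data with the same libraries, the test found 29% of genes changed by 1 on the log2 scale and 77% of those changed by 2. Of its calls there, 7.83% were genes that had not been changed. Leaving out 1 library called 11 to 38 genes.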

How the data were processed

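RNA of single cells was counted from transcript 5′ ends, per the labels' protocols. The deposited values are UMI counts per gene and barcode, whole numbers without normalization. Cell Ranger and mm10 are named in the submitters' processing notes, and the file headers name software version 3.0.0. The annotation is not given in the sources used here. Of 31053 gene identifiers, 30934 matched GENCODE M21.

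The members, gene lists and naming rules were chosen with earlier results of these data known. Genes used by the rule (Foxp3, Cd4, Cd3e, Cd3d, Cd3g, Cd8a, Cd8b1, Cd79a, Lyz2) were taken out of the fits. UMIs were summed per library and population, and 9080 genes passed the edgeR 4.0.16 filter (TMM, quasi-likelihood test, Benjamini-Hochberg, threshold 0.05). The library was the block, since each library gave both populations. A gene is called where its adjusted p is under 0.05. In simulated data the test found 66% of genes changed by 1 on the log2 scale and 95% of those changed by 2. DESeq2 1.42.0 was an alternative, as were other scalings, filters, Foxp3, Cd4, Lyz2 and mitochondrial limits, weights, thinning, doublet removal and leaving out 1 library. In DESeq2 and edgeR fits without 1 library, the lone library of an arm is taken to vary like the others.

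Doublets were scored against 2 simulated doublets per barcode and removed only in an alternative, at 0.8% per 1000 barcodes. Ratios between libraries are log2 ratios of CPM with exact conditional binomial intervals, and a count of 0 was set to 3 counts. Too shallow for thinning to 1000 UMIs were 0 to 2 regulatory T cells per library. For the shares, the limits on the rule's genes were applied again to the thinned counts. This left 46, 84, 84 and 151 regulatory T cells at 1000 UMIs, against 111, 191, 156 and 343 unthinned.

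Named genes were up to 12 per direction by fold change among called genes with the same direction in 4 of 4 libraries and at least 20 CPM, up to 10 per direction for tissue, up to 6 per direction and tissue for genotype, 6 by adjusted p for the interaction, and list members. Receptor segments, immunoglobulin, haemoglobin, mitochondrial, ribosomal, exocrine and islet genes and unnamed models were left out of these rankings. Genes named without other-lineage barcodes, up to 12 per direction for tissue and 8 for genotype, were chosen after seeing the data. A few genes and the results that need them are not reported here.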

Additional observations from a re-analysis of the deposited data

Results flagged for a closer look

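For 274 genes the edgeR test called a change between pancreas and lymph node in the difference between regulatory T cells and Foxp3-negative CD4 cells. The 6 named by adjusted p are flagged here. The pancreas-minus-lymph node values on the log2 scale were 2.70 for Cd74, -2.51 for Tbc1d4, 3.93 for H2-Aa, -1.40 for Il2rb, -3.22 for Socs2 and -1.22 for Ccr7. Adjusted p-values ran from 1.5e-06 to 6.9e-05. Cd74 and H2-Aa turned to -0.13 and -1.01 when barcodes with RNA of other cell types were left out. The other 4 kept their direction in every alternative tried.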

How the results depend on the processing

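The comparison of regulatory with other CD4 cells had 874 higher and 714 lower genes. Without the replicate block, which here is the library since the labels give no replicate numbers, 387 and 303 were called. With each barcode thinned to 1000 UMIs 347 and 352 were called, with DESeq2 468 lower, and with no filter on low counts 1116 lower. Leaving out 1 library gave 701 to 777 higher and 477 to 591 lower genes. The tissue test called 113 genes with DESeq2 and 25 to 245 without 1 library. The genotype test called 15 genes with no filter, 1 with at least 2 Foxp3 UMIs and 11 to 38 without 1 library. With a minimum of 20 UMIs, the 2-fold counts were 237 and 70 for tissue and 291 and 230 for genotype in pancreas and lymph node. Leaving out cells with any Lyz2 UMI gave 35 genotype genes in the pancreas, and leaving out other-lineage barcodes gave 27 there and 26 in the lymph node. The lymph node share difference was 0.201 points without thinning. After thinning, it was -0.270 with all barcodes within the limits as denominator. The tissue difference in control mice was 0.761 points with at least 2 Foxp3 UMIs.

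Without other-lineage barcodes several log2 values changed sign. These were the tissue interactions of Cd74 (-0.13) and H2-Aa (-1.01). The pancreas over lymph node ratios were those of H2-Ab1 in CD4-Cre mice (-0.14) and of Tyrobp (-0.81 and -0.73). The pancreas genotype ratios were those of H2-Eb1 (0.48), Cst3 (0.085), S100a9 (-2.43), S100a8 (-0.85) and Il1b (-0.85). S100a9 and S100a8 also changed sign without marked doublets (-2.19 and -0.60), without any Lyz2 UMI (-2.31 and -0.73) and without the top cell (-2.15 and -0.57). Ccl1 in the lymph node changed sign without the top cell (-1.42). Tyrobp had 0 UMIs in both lymph node libraries, S100a9, S100a8 and Il1b had 0 in pancreas control, and Ccl1 had 0 in lymph node control. There the 0 was set to 3 counts, so these negative ratios give no direction. The causes of the other changes were not tested.

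Totals without mitochondrial and ribosomal genes shifted the median tissue ratio of all genes by -0.12 in control and -0.15 in CD4-Cre mice, and TMM by -0.13 in CD4-Cre mice. The higher share of lymph node genotype genes went from 43.9% to 56.1% with TMM and to 55.8% with equal weight per barcode, and in the pancreas from 38.9% to 54.9% with equal weight, to 49.2% when Cd4 was required and to 55.0% with 20 UMIs. Depth limits rare genes: 3 counts correspond to 2.03 to 4.84 CPM.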
